A study of Mus musculus with 32 samples.

Results

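The sterol and fatty acid synthesis genes followed here are 35 named genes, 21 in a sterol arm and 14 in a fatty acid arm, and each had its own row among the 24454 gene IDs of the count table. The rows were found by matching NCBI gene IDs to symbols, and all 35 were found. Each of 32 regions cut out by laser from tissue sections was sequenced for RNA, all of them from female mice that carry MMTV-PyMT, R26-CBW and K8-CreERT2. There were 3 libraries of normal gland, 5 of hyperplasia, 8 of adenoma, 9 of carcinoma and 7 of metastases in the lung. All groups, normal gland included, came from animals that carry the same 3 alleles and were given 5 mg tamoxifen at 5 weeks of age, and tissue was taken once tumours of every stage were present. MMTV-PyMT is a viral oncogene under a mammary tumour virus promoter, so the normal gland is gland of a tumour-bearing mouse that carries the oncogene. K8-CreERT2 is a tamoxifen-dependent recombinase under the promoter of the luminal keratin 8 gene, and R26-CBW is the Confetti colour reporter, and patches of 1 colour were captured. They were cut from fixed sections of 7 µm, and their RNA was amplified from the poly(A) tail. By its labels normal 18 lay in the core of a tumour, and normal 28 and 30 were pooled from several places. The series gives n = 3 and does not tie a region to an animal, so regions share animals, and all p-values here, which treat regions as independent, may be too small.

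Library totals ranged from 2688611 to 19585351 counts, with 10258 to 17667 genes detected, and 1 unnamed gene ID made up 5.2 to 78.85% of the counts. Hyperplasia 22, metastasis 42 and adenoma 51 had fewer than 11000 detected genes and stand apart from the other 29 libraries in that respect. Of 5 luminal markers (Krt8, Krt18, Krt19, Epcam and Cdh1), all had counts in every stage, with summed levels of 1172 to 3846 CPM over the other stages and 902 to 1475 CPM in normal gland. CPM are counts scaled by effective library size. Of 12 adipocyte markers, summed levels were 127 to 749 CPM in normal gland, 1.24 to 96.2 CPM for hyperplasia, 0.212 to 66.9 CPM for adenoma, 2.78 to 112 CPM for carcinoma and 3.02 to 344 CPM for metastasis. Fibroblast markers (7 genes) summed to 12.6 to 2237 CPM over all other libraries, against 573 to 2813 CPM in normal gland. Alveolar type 2 markers of the lung (9 genes) summed to 507 to 4902 CPM in metastasis and 149 to 498 CPM in carcinoma. They summed to 155 to 195 CPM in normal gland, where Sftpc, Sftpb and Sftpa1 had no count, and 195 to 355 CPM in adenoma. In hyperplasia they summed to 146 to 748 CPM, and hyperplasia 46, the highest, lay above metastasis 57 and 58.

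Cholesterol is built from acetyl-CoA through mevalonate, isoprenoid diphosphates and squalene to lanosterol, which is then trimmed and reduced to cholesterol. Fatty acids are built from the same acetyl-CoA by carboxylation and repeated condensation, after which elongases and desaturases change chain length and double bonds. The sterol-regulated transcription factors of the SREBP family, encoded by Srebf1 and Srebf2, act on both arms, with Srebf2 tied more to sterol genes and Srebf1 more to fatty acid genes, and Insig1 holds them back in the endoplasmic reticulum. In the mammary gland fatty acid synthesis is best known for milk fat, and mammary tumours often express its enzymes.

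SREBP acts on promoters together with the CCAAT-binding factor NF-Y and with Sp1, so the RefSeq promoter windows of the members (GRCm38.p6, 250 bases before to 50 bases after the start) were searched for short motifs that were chosen after matches had been seen. A window was found for 28 of 35 members, 17 sterol and 11 fatty acid. These members have 35 windows in all, and a gene is counted below if any of its windows holds the motif. The first window listed for a pair of genes from each arm is shown up to the start, to let a reader see what the arms share: Hmgcs1, the member whose window held the sterol element, Insig1, the feedback gene, Fasn, the fatty acid synthase, and Thrsp, the member of highest level per length. Sequences run 5′ to 3′ on the gene's strand, and capitals mark TCACNCCAC (a sterol element), CCAAT and GGGCGG on either strand, with overlapping matches run together.
Hmgcs1: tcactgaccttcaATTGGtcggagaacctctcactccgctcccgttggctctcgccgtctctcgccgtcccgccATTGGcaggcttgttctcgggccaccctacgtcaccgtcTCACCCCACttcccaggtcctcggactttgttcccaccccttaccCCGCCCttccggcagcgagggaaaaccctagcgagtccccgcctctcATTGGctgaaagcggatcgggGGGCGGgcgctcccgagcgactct
Insig1: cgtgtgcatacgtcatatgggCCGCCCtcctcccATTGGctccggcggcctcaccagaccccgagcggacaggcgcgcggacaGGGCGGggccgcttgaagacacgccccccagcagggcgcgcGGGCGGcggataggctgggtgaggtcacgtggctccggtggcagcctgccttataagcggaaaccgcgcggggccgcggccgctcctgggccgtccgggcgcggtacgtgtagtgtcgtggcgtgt
Fasn: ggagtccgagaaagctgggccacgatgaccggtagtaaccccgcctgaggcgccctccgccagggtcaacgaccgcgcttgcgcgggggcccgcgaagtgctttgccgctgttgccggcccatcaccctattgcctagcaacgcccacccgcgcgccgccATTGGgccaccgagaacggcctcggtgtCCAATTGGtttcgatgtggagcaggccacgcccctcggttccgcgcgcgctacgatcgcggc
Thrsp: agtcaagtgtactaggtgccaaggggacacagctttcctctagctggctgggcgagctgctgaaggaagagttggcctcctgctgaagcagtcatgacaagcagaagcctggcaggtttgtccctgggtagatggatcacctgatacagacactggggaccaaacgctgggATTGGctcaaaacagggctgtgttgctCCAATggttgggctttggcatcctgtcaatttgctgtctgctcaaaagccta

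The 4 windows lie at chr13:119690101-119690350 on the plus strand (Hmgcs1), chr5:28071162-28071411 on the plus strand (Insig1), chr11:120824548-120824797 on the minus strand (Fasn) and chr7:97417551-97417800 on the minus strand (Thrsp), each ending at the first start that the promoter table gives for its gene. The RefSeq record of Fasn itself reaches to position 120825166, beyond its window, so the start used lies inside the record. CCAAT or its reverse complement ATTGG stood in a window of 16 of 17 sterol members (94.1%) and 8 of 11 fatty acid members (72.7%), against 41.1% of all 27025 genes with a window. GGGCGG or CCGCCC stood in a window of 16 of 17 sterol members (94.1%) and 6 of 11 fatty acid members (54.5%), against 38.2% of all genes and 54.1% of the 15525 genes with a window that were tested below. TCACNCCAC or its reverse complement stood in a window of 1 of 17 sterol members and 0 of 11 fatty acid members, against 1.44% of all genes. CACGTG, the E-box read by SREBP and other factors and not marked above, stood in a window of 4 of 17 sterol members (23.5%), namely Dhcr7, Hsd17b7, Sc5d and Insig1. The same held for 1 of 11 fatty acid members (9.09%), Elovl5, for 8.09% of all genes and for 9.83% of the 15525 tested genes. A match is a description of the letters and not evidence of binding.

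The fatty acid arm was expressed above the sterol arm per length. The median member level over the 32 libraries was 30.1 CPM per kilobase of exon in the fatty acid arm, against 8.25 CPM per kilobase in the sterol arm. Thrsp, a small nuclear protein that supports lipogenesis, led at 264 CPM per kilobase, followed by Srebf1 at 86.0, the desaturases Scd1 at 67.6 and Scd2 at 63.4, the elongase Elovl1 at 58.5 and, as the first sterol member, the phosphomevalonate kinase Pmvk at 52.6 CPM per kilobase. Idi1, the isopentenyl diphosphate isomerase, was lowest at 1.59 CPM per kilobase, and the fatty acid desaturase Fads2 at 2.05 and the sterol carrier Stard4 at 2.19 CPM per kilobase were close to it. This order rests on division by exon length, and the RNA was amplified from the poly(A) tail, so counts need not grow with length. Without that division Fasn led at 430.4 CPM, followed by Srebf1 at 369.5, Scd2 at 346, Thrsp at 337.5 and Scd1 at 326.4 CPM. The arm medians were then 108 CPM (fatty acid) and 25.56 CPM (sterol). Zero counts made up 6.10% of sterol values (41 of 672) and 2.01% of fatty acid values (9 of 448). Idi1 had no count in 13 of 32 libraries and Stard4 in 11 of 32. A mean of 20 CPM or more was reached by 12 of 21 sterol members and 12 of 14 fatty acid members. All 35 members passed the filter on low counts in both models.

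**Figure D1:**
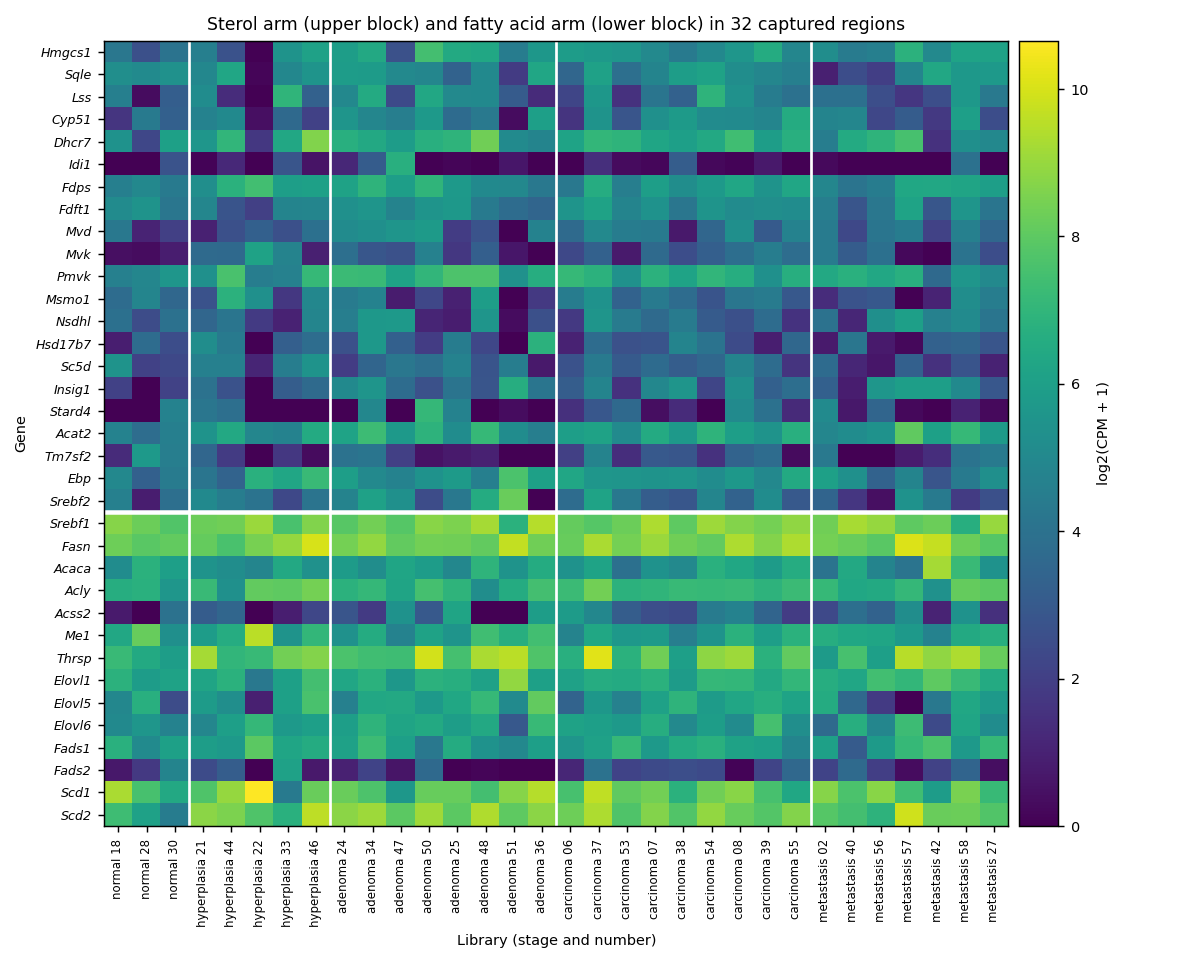
Level of each member, as log2(CPM + 1), in each of the 32 libraries, with the sterol arm in the upper block, the fatty acid arm in the lower block and white lines between stages in the order normal, hyperplasia, adenoma, carcinoma, metastasis. The fatty acid block is brighter, with Fads2 and Acss2 as its dim rows, and Idi1 and Stard4 are dark in most libraries.

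Normal gland had the lowest mean level of both arms among the 5 stages. The sterol arm level, the mean log2(CPM + 1) over its 21 genes, was 3.31 ± 0.49 in normal gland (SD over 3 libraries), 3.8 ± 0.82 in the 5 hyperplasias, 4.18 ± 0.76 in the 8 adenomas, 4.24 ± 0.50 in the 9 carcinomas and 3.67 ± 0.60 in the 7 metastases. The fatty acid arm level over 14 genes was 5.83 ± 0.25 in normal gland, 6.38 ± 0.30 in the hyperplasias, 6.39 ± 0.37 in the adenomas, 6.47 ± 0.41 in the carcinomas and 6.23 ± 0.36 in the metastases. With DESeq2 size factors the fatty acid level stood above normal gland by 0.182 in hyperplasia, 0.179 in adenoma and 0.227 in carcinoma, smaller than the differences above. With library totals in place of TMM scaling, metastasis lay slightly below normal gland in both arms, with differences of -0.004 for the sterol arm and -0.079 for the fatty acid arm. These totals include the unnamed gene ID, at 78.85% in metastasis 40, 52.09% in metastasis 42 and 8.15 to 29.54% in the other metastases. In normal gland it made up 21.72 to 31.15%, and its part in these differences was not tested. The stages overlapped in both arms, except that the lowest hyperplasia library, at 6.13, lay above the highest normal library, at 6.01, in the fatty acid arm. The 3 normal libraries held ranks 22, 25 and 31 of 32 for the sterol arm and ranks 27, 29 and 32 for the fatty acid arm, counted from the highest. The highest sterol levels were 5.41 in adenoma 34 and 5.19 in carcinoma 37, and the lowest was 2.36 in hyperplasia 22, which had 7 of 21 sterol genes at 0. The highest fatty acid levels were 7.17 in carcinoma 37, 7.04 in adenoma 36 and 6.95 in metastasis 58. Adenoma 36 stood at opposite ends in the arms, at rank 2 for fatty acid and rank 26 for sterol genes. Adipocyte and fibroblast marker sums were higher in normal gland and the luminal sum lower, as given above, and their part in the arm levels was not tested. In captured regions, fewer cells of a type and less RNA per cell cannot be told apart.

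**Figure D2:**
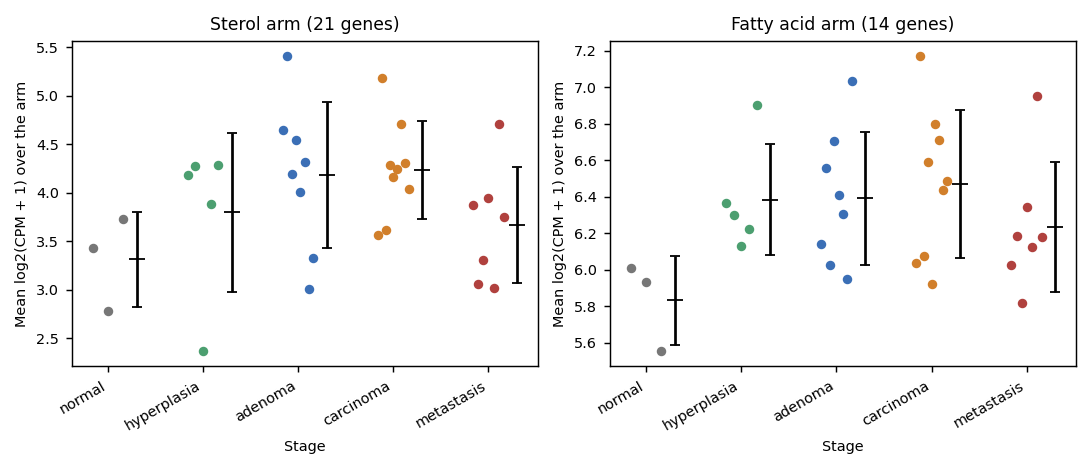
Mean log2(CPM + 1) over the 21 sterol genes (left) and the 14 fatty acid genes (right), with a point per library and bars for the mean and SD of each stage; the vertical axes differ and do not start at 0. Normal gland has the lowest means, 3.31 and 5.83, and hyperplasia 22 is the lowest sterol point at 2.36.

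Among single members, too, normal gland was often the lowest stage. Of the 12 sterol members that averaged at least 20 CPM, 9 had their lowest stage mean in normal gland (75%), and so had 6 of 12 fatty acid members (50%), against 36.7% of all 7305 genes of that level. Of the sterol members, 6 of 12 had their highest stage mean in adenoma, against 19.9% of those genes. Of all 21 sterol members, 11 were lowest in normal gland (52.4%) and 7 in metastasis (33.3%). Of all 14 fatty acid members, 7 were lowest in normal gland (50%). These are counts over stage means on TMM scaling only, without a test.

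The comparison of the primary tumour stages (the mean of hyperplasia, adenoma and carcinoma) with normal gland called 1 of 35 members at an adjusted p under 0.05, against 3.34% of the 19907 genes tested. That gene was Scd2, a stearoyl-CoA desaturase that makes monounsaturated fatty acids. Scd2 was at 450.4, 379, 210.1, 108 and 769 CPM in hyperplasia 21, 44, 22, 33 and 46, at 247 to 671 CPM with a median of 446 CPM in adenoma and at 212 to 645 CPM with a median of 311 CPM in carcinoma, against 162.5, 67.5 and 21.55 CPM in normal 18, 28 and 30. Every adenoma and carcinoma library lay above every normal library, and of the hyperplasia libraries only number 33 lay below normal 18. Scd2 rose in the primary stages (log2 fold change 2.21, SE 0.59, adjusted p 0.0302, edgeR's quasi-likelihood test with Benjamini-Hochberg adjustment). Calls in this comparison were mostly of genes lower in the tumour stages, 647 (3.25%), with 17 higher (0.0854%), and 437 of all 664 genes called had no count in at least 1 of the 4 stages. The Scd2 call was lost without normal 28 (adjusted p 0.183), normal 30 (0.222), hyperplasia 44 (0.0515) or hyperplasia 46 (0.0514), with the stages as 1 group of 22 libraries (0.0821), with detected genes as a covariate (0.166) and with limma voom (0.082), at log2 fold changes of 1.75 to 2.59 in these settings. It held with DESeq2 (adjusted p 0.00484, with Mvk called as well at 0.0392), without the 3 libraries of fewest detected genes (adjusted p 0.0414) and without normal 18, at a log2 fold change of 3.12 (adjusted p 0.0199).

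In metastasis Scd2 was at 119 to 942 CPM with a median of 229 CPM, and its levels there overlapped normal 18. Scd1, the paralog known from fat and liver, was at 20.1 to 1612 CPM in hyperplasia, 48.3 to 700.1 CPM in adenoma and 79.9 to 794 CPM in carcinoma, against 622.5, 185 and 85.15 CPM in normal 18, 28 and 30. Scd1 overlapped between all these stages (log2 fold change 0.29, SE 0.67, adjusted p 0.91, edgeR). How reads that fit several genes of this family were counted is not stated. Lalba, a milk protein gene of secretory epithelium, was also called higher in the primary stages (log2 fold change 1.98, SE 0.56, adjusted p 0.0373), and the summed level of 8 milk markers was 4611 to 31020 CPM in hyperplasia, 4483 to 22340 CPM in adenoma and 4463 to 14900 CPM in carcinoma, against 1866 to 6855 CPM in normal gland. The collagens Col1a1 (log2 fold change -2.62, SE 0.77, adjusted p 0.048) and Col3a1 (-2.85, SE 0.68, adjusted p 0.0192) were called lower, and so were the adipocyte genes Cfd and Retn, for which no fold is given because some tumour stages had no count. The genes named are single members of lists of 8 milk, 7 fibroblast and 12 adipocyte markers. Glycam1, another of the milk markers, had no count in hyperplasia, while it had counts in normal gland. The part of these markers in the Scd2 difference was not tested.

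**Figure D3:**
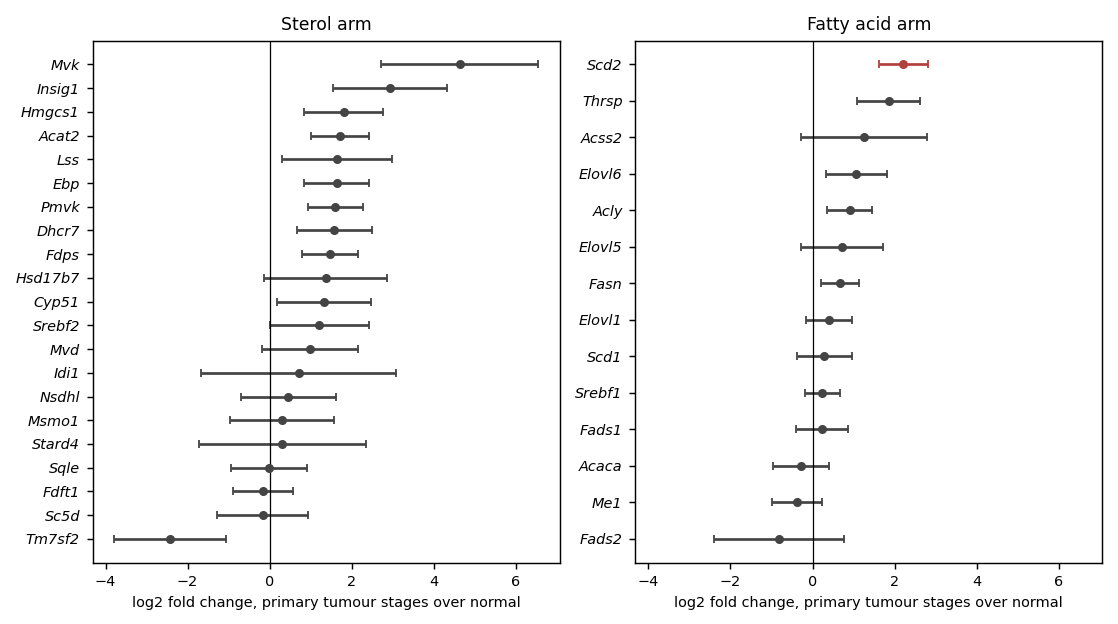
Log2 fold change of each member, primary tumour stages over normal gland, with bars of 1 SE, derived from the F statistic of the edgeR test. Scd2, in red, is the member called. In the sterol arm 17 of 21 points lie right of 0 and in the fatty acid arm 11 of 14, and the bars are widest for Idi1 (SE 2.38), Stard4 (2.03) and Mvk (1.91).

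In that comparison edgeR and limma voom called no sterol member and DESeq2 called Mvk, while 17 of 21 had a positive fold change, with a median of 1.32 on the log2 scale, and 6 of 21 (Fdps, Mvk, Pmvk, Insig1, Acat2 and Ebp) had an unadjusted p under 0.05, all with positive fold changes. Over all genes tested the median was 0.03 (log2) and 14.9% had an unadjusted p under 0.05 in either direction. Of these 19907 genes, 530 had such a p with a positive fold change. In the fatty acid arm 11 of 14 were higher with a median of 0.54, and Scd2 and Thrsp had an unadjusted p under 0.05. Detected genes averaged 16820 in normal gland, 14010 in hyperplasia, 13730 in adenoma and 15830 in carcinoma. With detected genes as a covariate the fatty acid median was 0.17, against 0.22 for all genes, so this arm then did not stand above them. With DESeq2 size factors the median of all genes moved by -0.40 to -0.38, and the medians were 0.77 for the sterol arm and 0.09 for the fatty acid arm, with 15 of 21 and 8 of 14 members higher. Members measured in the same libraries are not independent, so these counts are a description. Values in the next paragraphs are log2 fold changes of the primary stages over normal gland from the edgeR fit, with SE and adjusted p.

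Several early enzymes of the mevalonate route were among the members of smallest p. Acat2, the thiolase that joins acetyl-CoA units, was at 43.1, 86.2, 29, 25.1 and 89.7 CPM in hyperplasia 21, 44, 22, 33 and 46, 22.9 to 157 CPM with a median of 61.9 CPM in adenoma and 32.9 to 121 CPM with a median of 62 CPM in carcinoma, against 25.8, 12.9 and 23.2 CPM in normal 18, 28 and 30. All 9 carcinoma libraries lay above all normal libraries, while hyperplasia and adenoma overlapped them (log2 fold change 1.71, SE 0.70, adjusted p 0.2). Acat2 has a close copy, Acat3, and how reads were split between them is not given. Mvk, mevalonate kinase, had 4, 1 and 4 counts in normal 18, 28 and 30, so its fold rests on 9 counts in that group, beside 977 counts over 5 hyperplasia, 637 over 8 adenoma and 1081 over 9 carcinoma libraries. Its level was 11.9, 11.5, 69.7, 26.4 and 0.906 CPM in hyperplasia 21, 44, 22, 33 and 46, 0 to 25 CPM with a median of 5.78 CPM in adenoma and 0.696 to 21.8 CPM with a median of 9.015 CPM in carcinoma, against 0.345, 0.269 and 0.821 CPM in normal 18, 28 and 30 (log2 fold change 4.63, SE 1.91, adjusted p 0.201). All hyperplasia libraries lay above all normal ones, and the lowest adenoma and carcinoma libraries lay below normal 30. Pmvk, the next kinase, was at 21.7 to 194 CPM in hyperplasia, 41.4 to 205 CPM in adenoma and 40 to 140.2 CPM in carcinoma, against 23.8, 28.8 and 48 CPM in normal 18, 28 and 30 (log2 fold change 1.59, SE 0.67, adjusted p 0.212).

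Hmgcs1, which makes the substrate of the rate-limiting reductase, averaged 27.8 ± 27.8 CPM over 5 hyperplasias (mean ± SD, as below), 70.5 ± 51.7 CPM over 8 adenomas and 45.5 ± 21.6 CPM over 9 carcinomas, against 12.8 ± 6.71 CPM over 3 normal libraries, with a log2 fold change of 1.8 (SE 0.96). Mvd, the decarboxylase that ends the mevalonate segment, had 0.98 (SE 1.18), and Idi1, the isomerase that follows it, 0.70 (SE 2.38). Idi1 was near 0 in most libraries but reached 105 CPM in adenoma 47 and 14.6 CPM in metastasis 58. Fdps, which builds farnesyl diphosphate, averaged 88.45 ± 52.3 CPM in hyperplasia, 64.25 ± 40.5 CPM in adenoma and 54.2 ± 26.5 CPM in carcinoma, against 24.6 ± 5.58 CPM in normal gland (log2 fold change 1.46, SE 0.68, adjusted p 0.294). EdgeR called none of these early steps in this comparison.

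The squalene steps lay closer to 0. Fdft1, squalene synthase, had a log2 fold change of -0.16 (SE 0.73). Sqle, squalene epoxidase, had -0.01 (SE 0.92), with 36.8 ± 28.8 CPM in hyperplasia, 36.9 ± 25.5 CPM in adenoma and 37.4 ± 22.65 CPM in carcinoma, against 37.25 ± 3.99 CPM in normal gland. Lss, which closes the ring to lanosterol, had 1.65 (SE 1.34), and Cyp51, the lanosterol demethylase, 1.32 (SE 1.13). Among the later enzymes Msmo1, the methylsterol oxidase, had 0.30 (SE 1.26), Nsdhl, a sterol dehydrogenase of the same demethylation, 0.46 (SE 1.16), and Hsd17b7, its ketoreductase, 1.36 (SE 1.5). Ebp, the isomerase that moves the ring double bond, averaged 72.5 ± 60.1 CPM in hyperplasia, 63.1 ± 57.6 CPM in adenoma and 51.4 ± 18.5 CPM in carcinoma, against 19.95 ± 11.1 CPM in normal gland (log2 fold change 1.63, SE 0.79, adjusted p 0.323). Dhcr7, the last reductase, averaged 132 ± 158 CPM in hyperplasia, 107 ± 94 CPM in adenoma and 97.8 ± 36.3 CPM in carcinoma, against 37.3 ± 31.3 CPM in normal gland (log2 fold change 1.58, SE 0.90, adjusted p 0.426). Sc5d, a sterol desaturase, had -0.18 (SE 1.1).

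Tm7sf2, a sterol reductase that acts after the lanosterol demethylase, had the lowest fold change of the 35 members. It was at 10.4, 2.56, 0, 2.3 and 0.247 CPM in hyperplasia 21, 44, 22, 33 and 46, 0 to 16.6 CPM with a median of 0.858 CPM in adenoma and 0.253 to 26 CPM with a median of 6.22 CPM in carcinoma, against 1.47, 53.3 and 22.8 CPM in normal 18, 28 and 30 (log2 fold change -2.43, SE 1.36, adjusted p 0.416). Normal 18 lay within the range of each tumour stage, so the higher normal level came from the pooled libraries 28 and 30.

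Of the regulators, Insig1, which retains the SREBP complex, was at 15, 5.49, 0, 7.75 and 12 CPM in hyperplasia 21, 44, 22, 33 and 46, 5.2 to 99 CPM with a median of 16.3 CPM in adenoma and 1.86 to 45.8 CPM with a median of 13.5 CPM in carcinoma, against 3.19, 0 and 3.28 CPM in normal 18, 28 and 30 (log2 fold change 2.92, SE 1.39, adjusted p 0.307). All 8 adenoma libraries lay above all normal libraries, while hyperplasia and carcinoma overlapped them. Srebf2 had a log2 fold change of 1.2 (SE 1.21) and spanned 0 to 298 CPM in adenoma. Stard4, which carries sterol between membranes, had no count in 2 of 3 normal, 3 of 5 hyperplasia, 4 of 8 adenoma, 1 of 9 carcinoma and 1 of 7 metastasis libraries, and a fold change of 0.30 (SE 2.03).

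In the fatty acid arm the suppliers of acetyl-CoA and of reducing power were not called. Acly, which splits citrate into acetyl-CoA, averaged 212 ± 119 CPM in hyperplasia, 117 ± 49.6 CPM in adenoma and 158.5 ± 68 CPM in carcinoma, against 84.5 ± 32.9 CPM in normal gland (log2 fold change 0.90, SE 0.55, adjusted p 0.456). Acss2, which makes acetyl-CoA from acetate, was at 0 to 73 CPM over these tumour stages, against 0.69, 0 and 15 CPM in normal 18, 28 and 30, with a log2 fold change of 1.25 (SE 1.54). Me1, the malic enzyme that yields NADPH, averaged 215 ± 299 CPM in hyperplasia, 89 ± 55.2 CPM in adenoma and 62.4 ± 32.8 CPM in carcinoma, against 138 ± 135 CPM in normal gland (log2 fold change -0.38, SE 0.61, adjusted p 0.85). Hyperplasia 22, one of the libraries of few detected genes, held the highest Me1 level at 747 CPM.

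Fasn, the synthase itself, was at 281, 195, 350.2, 495 and 1044 CPM in hyperplasia 21, 44, 22, 33 and 46, 269 to 825 CPM with a median of 327.5 CPM in adenoma and 272 to 653 CPM with a median of 406 CPM in carcinoma, against 312, 241 and 273.5 CPM in normal 18, 28 and 30 (log2 fold change 0.67, SE 0.46, adjusted p 0.525). The Fasn ranges of all these stages overlapped. Acaca, the carboxylase that commits carbon to fatty acids, had a fold change of -0.29 (SE 0.68). Srebf1 stayed within 102.5 to 698.5 CPM over all 32 libraries and averaged 349.6 ± 126 CPM in hyperplasia, 377 ± 197 CPM in adenoma and 387 ± 142 CPM in carcinoma, against 313 ± 105 CPM in normal gland (log2 fold change 0.24, SE 0.43, adjusted p 0.868). Thrsp was at 597, 129, 144, 332 and 405 CPM in hyperplasia 21, 44, 22, 33 and 46, 163 to 979 CPM with a median of 204 CPM in adenoma and 63 to 1164 CPM with a median of 276 CPM in carcinoma, against 149.8, 87.7 and 60.3 CPM in normal 18, 28 and 30 (log2 fold change 1.85, SE 0.76, adjusted p 0.199). All adenoma libraries lay above all normal libraries, while hyperplasia and carcinoma overlapped them.

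Elongases and desaturases other than Scd2 were not called. Elovl6, which lengthens saturated chains, averaged 69.1 ± 40.1 CPM in hyperplasia, 79.9 ± 41.3 CPM in adenoma and 69.9 ± 46.1 CPM in carcinoma, against 34.9 ± 11.5 CPM in normal gland (log2 fold change 1.06, SE 0.74, adjusted p 0.543). Elovl1 and Elovl5, which act on very long and on polyunsaturated chains, had log2 fold changes of 0.41 (SE 0.56) and 0.72 (SE 1.0). The polyunsaturated fatty acid desaturases Fads1 and Fads2 had 0.23 (SE 0.63) and -0.81 (SE 1.58).

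**Figure D4:**
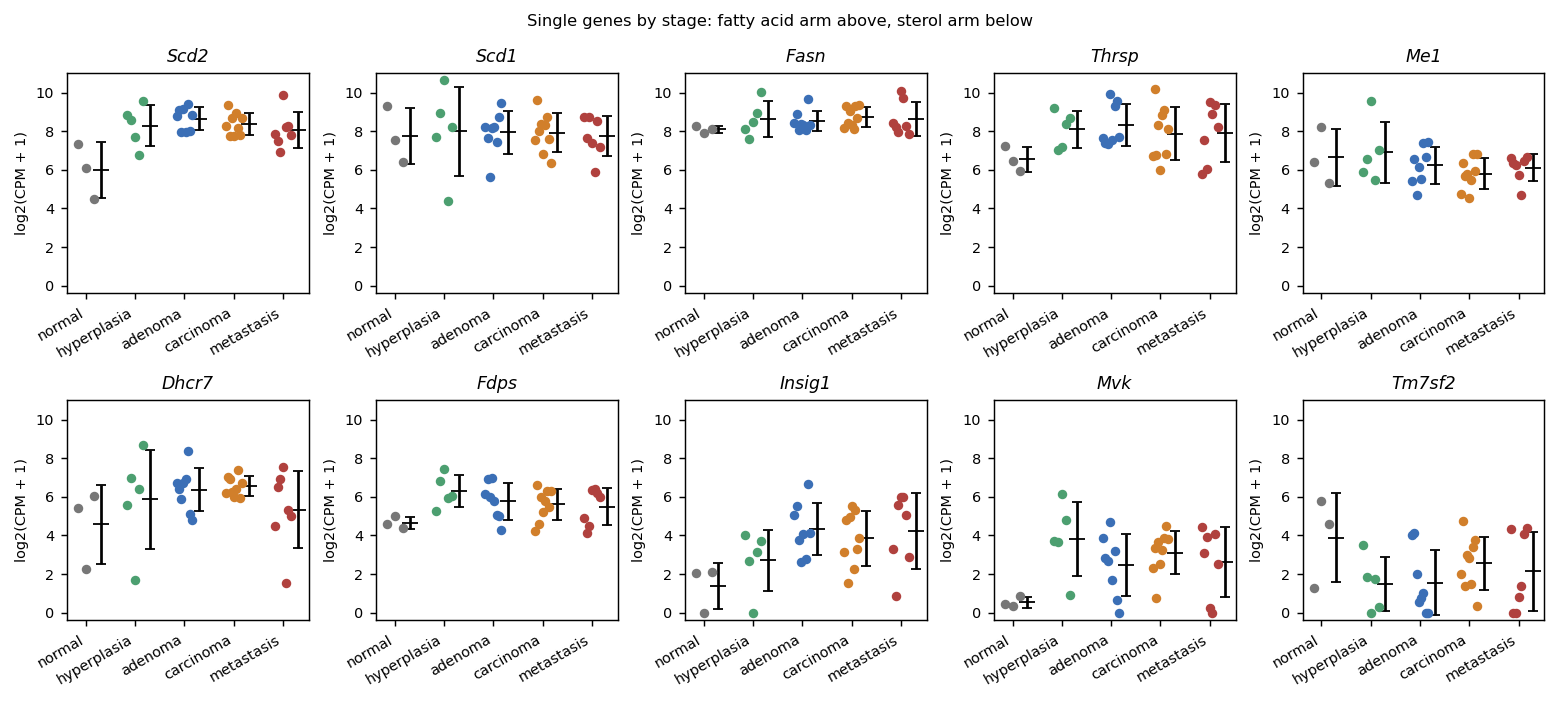
Log2(CPM + 1) of 5 fatty acid members (above) and 5 sterol members (below) by stage from normal gland to metastasis, with a point per library and bars for mean and SD. Scd2 is lowest in normal gland at 21.55 to 162.5 CPM, Mvk is below 1 CPM in all normal libraries, and Tm7sf2 has its highest value in normal 28.

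Taken 1 step at a time, the stages gave no member past the threshold by edgeR. In hyperplasia over normal gland 0 of 35 members and 0% of all genes tested were called by edgeR, with 12.4% of all genes at an unadjusted p under 0.05. The sterol arm was higher for 15 of 21 members with a median log2 fold change of 1.12 and the fatty acid arm for 12 of 14 with a median of 0.67, against an all-gene median of 0.00. DESeq2 size factors moved the all-gene median to -0.35, and the arm medians were then 0.63 and 0.32. The members of smallest p were Scd2 (log2 fold change 2.19, SE 0.64, adjusted p 0.282), Mvk (5.62, SE 2.1, adjusted p 0.282) and Fdps (1.85, SE 0.77, adjusted p 0.31). Fdps was at 37, 109.9, 169, 60.95 and 65.1 CPM in hyperplasia 21, 44, 22, 33 and 46, against 23.4, 30.7 and 19.7 CPM in normal 18, 28 and 30, without overlap. The DESeq2 Wald test called 483 genes in this step, Mvk (adjusted p 0.0101) and Scd2 (0.0245) among them, and limma voom called 105 genes and no member.

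In adenoma over hyperplasia 0 of 35 members and 0% of all genes were called by edgeR, with 14.8% at an unadjusted p under 0.05. Me1 had the smallest p (log2 fold change -1.27, SE 0.57, adjusted p 0.285), at 25.4 to 169.7 CPM with a median of 81.5 CPM in adenoma, against 58.1, 95, 747, 44 and 130.3 CPM in hyperplasia 21, 44, 22, 33 and 46. Fads2 followed (-2.96, SE 1.57, adjusted p 0.378), at 0 to 11.4 CPM with a median of 0.309 CPM in adenoma, against 4.45, 7.94, 0, 67.65 and 0.659 CPM in the hyperplasia libraries in the same order. Acly came next (-0.86, SE 0.46, adjusted p 0.38), at 36.1 to 183 CPM in adenoma, against 148, 40.3, 276, 255 and 342 CPM in hyperplasia. All 3 overlapped between the stages, and the hyperplasia means of Me1 and Fads2 rested mostly on hyperplasia 22 and 33. The sterol arm had a median of 0.63 with 15 of 21 members higher, and the fatty acid arm a median of 0.13 with 8 of 14 higher, against 0.06 for all genes. DESeq2 called 609 genes and limma voom 2, none of them members.

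In carcinoma over adenoma 0 of 35 members and 0% of all genes were called by edgeR (12.6% at an unadjusted p under 0.05). Srebf2 had the smallest p (log2 fold change -1.65, SE 0.87, adjusted p 0.442), at 6.22 to 71.5 CPM with a median of 12.6 CPM in carcinoma, against 0 to 298 CPM with a median of 32.9 CPM in adenoma. Idi1 (-3.56, SE 1.9, adjusted p 0.454) was at 0 to 7.805 CPM in carcinoma, against 0 to 105 CPM in adenoma, where the highest value is that of adenoma 47 alone. Hsd17b7 (-1.47, SE 1.06, adjusted p 0.664) was at 0.8475 to 27.4 CPM in carcinoma, against 0 to 114 CPM in adenoma. The medians were -0.25 in the sterol arm, with 15 of 21 members lower, and -0.14 in the fatty acid arm, with 9 of 14 lower, against 0.02 for all genes. With limma voom they were 0.04 and 0.23, against 0.27 for all genes. DESeq2 called 269 genes and limma voom 7, none of them members.

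Metastasis over carcinoma called 0 of 35 members, against 0.0151% of all genes tested, the 3 genes called being the alveolar surfactant genes Sftpc, Sftpb and Sftpa1. Acaca had the smallest p among members (log2 fold change 1.13, SE 0.56, adjusted p 0.464), at 15.5 to 595 CPM with a median of 42.1 CPM in metastasis, against 14.4 to 109 CPM with a median of 57 CPM in carcinoma, and the highest of these values is that of metastasis 42, one of the libraries of few detected genes. Sc5d (-1.38, SE 0.94, adjusted p 0.687) was at 0.5475 to 12.2 CPM in metastasis, against 2.02 to 27.4 CPM in carcinoma. Ebp (-0.82, SE 0.57, adjusted p 0.7) was at 5.94 to 65.6 CPM in metastasis, against 30.3 to 86.8 CPM in carcinoma. The sterol arm had 15 of 21 members lower with a median of -0.36, and the fatty acid arm 9 of 14 lower with a median of -0.08, against -0.01 for all genes. With DESeq2 size factors the fatty acid median was 0.01, with 7 of 14 members higher. DESeq2 called 186 genes and limma voom 19, and 10.9% of genes had an unadjusted p under 0.05 by edgeR, with no member in any of these sets.

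Carcinoma over normal gland called 0 of 35 members, against 0.00502% of all genes tested, which was the adipocyte gene Cfd. The sterol arm was higher for 17 of 21 members with a median log2 fold change of 1.14 and the fatty acid arm for 11 of 14 with a median of 0.41, against 0.10 for all genes, of which 8.17% had an unadjusted p under 0.05, and with DESeq2 size factors the fatty acid median was -0.08, with 6 of 14 higher, against an all-gene median of -0.31. Scd2 (log2 fold change 2.08, SE 0.61, adjusted p 0.207), Acat2 (1.78, SE 0.74, adjusted p 0.498) and Thrsp (1.82, SE 0.79, adjusted p 0.551) had the smallest p. DESeq2 called Scd2 here (adjusted p 0.0363) among 177 genes, and limma voom called 316 genes and no member. Across all 5 stages in 1 test, 0 of 35 members were called, against 3.58% of all genes tested, and Scd2 (adjusted p 0.114), Me1 (0.148) and Srebf2 (0.238) came closest by edgeR, where 20.9% of genes, these 3 members included, had an unadjusted p under 0.05. DESeq2 called 338 genes in this test and limma voom 354, none of them members. Comparisons with normal gland share the same 3 libraries and are not independent of each other.

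Within stages the labelled position of a region gave no call for any gene, by edgeR, in any of 5 comparisons. In carcinoma core (6 libraries) against border (3), 0 of 35 members and 0% of 22676 genes tested were called, and 5.63% of genes had an unadjusted p under 0.05, none of them members. Me1 came closest (log2 fold change -1.03, SE 0.72, adjusted p 0.902), at 26, 81.2, 50.1, 54.8, 22.5 and 43.2 CPM in the core, against 111, 61.2 and 111 CPM at the border. Stard4 (-2.22, SE 1.85, adjusted p 0.978) was at 0 to 11.4 CPM in the core, against 33.2, 14.8 and 1.43 CPM at the border. Fasn (-0.51, SE 0.48, adjusted p 1) was at 272 to 628 CPM in the core, against 642, 406 and 653 CPM at the border. Core and border overlapped for all 3 genes. The arms had medians of 0.02 (sterol, 11 of 21 higher) and 0.03 (fatty acid, 7 of 14 higher), against 0.15 for all genes. DESeq2 called 314 genes and limma voom 5, none of them members.

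In adenoma core (3 libraries) against border (3), 0 of 35 members and 0% of genes were called, with 9.45% of genes at an unadjusted p under 0.05. Stard4 was at 0, 25.2 and 0.285 CPM in core libraries 24, 25 and 51, against 0 in all 3 border libraries, which makes it at least 18-fold higher in the core at a floor of 3 counts per border library, through adenoma 25 (adjusted p 0.514). Elovl1 was at 77.55, 102.5 and 479.8 CPM in the core, against 48.3, 67.9 and 66.3 CPM at the border, without overlap (log2 fold change 1.85, SE 0.76, adjusted p 0.514). Srebf1 was at 236, 377 and 110.2 CPM in the core, against 227, 601 and 698.5 CPM at the border (-1.08, SE 0.60, adjusted p 0.524). The sterol median was 0.29 with 12 of 21 members higher, also with Stard4 at its bound, and the fatty acid median -0.11 with 7 of 14 higher, against 0.00 for all genes. The sterol median was -0.35 with detected genes as a covariate, and leaving out a single library gave -0.82 to 0.91. Adenoma 51, of few detected genes, is in the core group. DESeq2 called 1133 genes, with Stard4 and Elovl1 (adjusted p 0.0363) among them, and limma voom 35 genes and no member.

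Metastases at the lung border (4 libraries) against the lung centre (3) gave 0 of 35 members and 0% of genes called, with 8.71% of genes at an unadjusted p under 0.05. Dhcr7 was at 91.4, 119.7, 185 and 38.75 CPM at the border, against 21.7, 1.89 and 30.7 CPM in the centre, without overlap (log2 fold change 2.57, SE 0.96, adjusted p 0.558). Elovl6 was at 100.4, 29, 158 and 76 CPM at the border, against 11.8, 4.32 and 35.2 CPM in the centre (2.4, SE 0.92, adjusted p 0.558). Acaca was at 85.2, 26.8, 16 and 147 CPM at the border, against 15.5, 595 and 42.1 CPM in the centre (-1.66, SE 0.86, adjusted p 0.558). The lowest Dhcr7 and Elovl6 values and the highest Acaca value all belong to metastasis 42. The sterol median was 0.46 with 15 of 21 higher and the fatty acid median 0.03 with 8 of 14 higher, against 0.31 for all genes, and without the 3 libraries of fewest detected genes they were 0.12 and 0.62. DESeq2 called 740 genes, with Elovl6 among them (adjusted p 0.0376), and limma voom 12 genes and no member. Alveolar marker sums were 507 to 4022 CPM at the border and 1019 to 4902 CPM in the centre.

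Early lesions outside the tumour (hyperplasia 46, adenoma 34 and adenoma 50) against the core of the same stages (6 libraries) had 0 of 35 members and 0% of genes called, with 5.39% of genes at an unadjusted p under 0.05. Fold changes here are the mean of the hyperplasia and the adenoma difference, so hyperplasia 46 alone stands for hyperplasia outside. Scd2 was at 769, 548 and 559 CPM outside, against 108 to 450.4 CPM in the core, without overlap (log2 fold change 1.2, SE 0.54, adjusted p 0.768). Dhcr7 was at 402, 84.95 and 103 CPM outside, against 2.28 to 120.5 CPM in the core (1.67, SE 0.80, adjusted p 0.768). Acat2 was at 89.7, 157 and 116 CPM outside, against 25.1 to 71.9 CPM in the core, without overlap (1.5, SE 0.73, adjusted p 0.768). The sterol arm level was 4.75 ± 0.59 outside (SD, n = 3) and 3.68 ± 0.84 in the core (n = 6), and the fatty acid arm level was 6.72 ± 0.17 outside and 6.20 ± 0.17 in the core. These means pool 1 hyperplasia and 2 adenomas outside, against 3 of each in the core. For hyperplasia alone the sterol level was 4.29 outside and 3.48 in the core, and the fatty acid level 6.90 and 6.24. For adenoma alone they were 4.98 and 3.89 in the sterol arm, and 6.63 and 6.17 in the fatty acid arm. In the fatty acid arm the lowest library outside, at 6.56, lay above the highest core library, at 6.41, and in the sterol arm the groups overlapped. The sterol median fold change was 0.46 and the fatty acid median 0.40, against -0.69 for all genes, and with DESeq2 size factors 0.23 and 0.14. Without adenoma 34 the sterol median was -0.079. The core group holds hyperplasia 22 and adenoma 51, and without the 3 libraries of fewest detected genes the medians were 0.34 and 0.61. DESeq2 called 1812 genes, with Stard4 the only member (adjusted p 0.00223), and limma voom 42 genes and no member. The Stard4 call was for a lower level outside, and no fold is given because hyperplasia 46 had 0 counts. Hyperplasia core libraries 21, 22 and 33 had 194, 0 and 0 counts of Stard4. Adenoma ran the other way, with 613 and 1204 counts outside, against 0, 419 and 1 in core libraries 24, 25 and 51.

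**Figure D5:**
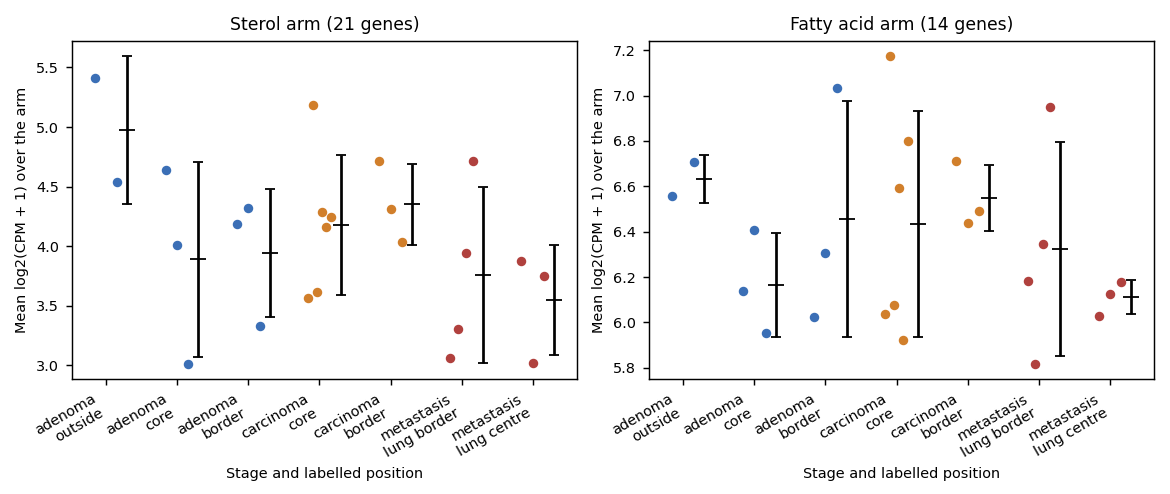
Mean log2(CPM + 1) over the sterol (left) and fatty acid (right) genes for adenoma, carcinoma and metastasis libraries by labelled position, with a point per library and bars for mean and SD; the vertical axes differ and do not start at 0. Adenoma outside the tumour has levels of 5.41 and 4.54 in the sterol arm and 6.56 and 6.71 in the fatty acid arm, and core and border overlap in both stages.

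The difference between the core and border contrasts of carcinoma and adenoma was tested as an interaction, which called 0 of 35 members and 0% of genes, with 8.77% of genes at an unadjusted p under 0.05. Of the members, Stard4 had the smallest p (adjusted p 0.511), and no fold is given for it because adenoma border was at 0. Elovl1 followed (carcinoma minus adenoma -2.18, SE 0.97, adjusted p 0.529) and then Idi1 (8.54, SE 4.43, adjusted p 0.596), whose adenoma border libraries 47, 48 and 36 had 105, 0 and 0 CPM. DESeq2 called 690 genes, with Stard4 the only member, and limma voom 1 gene that was no member.

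Spread within stages overlapped between the arms, gene by gene. Among genes that averaged at least 20 CPM, the pooled within-stage SD of log2(CPM + 1) had a median of 1.03 in the fatty acid arm and 1.45 in the sterol arm (12 genes each), against 1.34 over 7305 genes. Fasn (SD 0.67) and Srebf1 (0.70) were the steadiest members, with 5.9% and 7.3% of genes having a smaller SD. Lss (1.92), Elovl5 (1.81) and Srebf2 (1.78) were the most variable, with 91.9%, 87.1% and 85.9% of genes below them. Level and spread are linked in count data, and the fatty acid arm has the higher levels. By stage, the sterol median SD was 0.88 for normal gland, 1.65 for hyperplasia, 1.24 for adenoma, 0.74 for carcinoma and 1.3 for metastasis, and the fatty acid median was 0.73, 1.02, 0.96, 0.73 and 1.0 in the same order. Over all genes it was 0.82, 1.42, 1.38, 0.89 and 1.30, so the wide spread of hyperplasia and the narrow one of carcinoma appeared across genes.

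Members of an arm varied together across libraries slightly more than other genes did. Over the 32 libraries, which share depth and capture conditions, and after stage means were removed, the median Spearman rho between pairs was 0.14 within the sterol arm (66 pairs), 0.11 within the fatty acid arm (66 pairs) and 0.09 between arms (144 pairs), against 0.03 for all pairs of genes of that level. The closest pairs were Acat2 with Scd2 (0.72), Hmgcs1 with Fdft1 (0.69), Dhcr7 with Pmvk (0.64), Hmgcs1 with Lss (0.57) and Thrsp with Scd2 (0.57). The most opposed were Cyp51 with Fads1 (-0.46) and Insig1 with Srebf1 (-0.40). These are descriptions over libraries that differ in the number of genes detected. Acat2 and Scd2 each had their highest level in metastasis 57, at 268.5 CPM and 942 CPM.

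Other genes of the same pathways were not called by edgeR in any of the 12 comparisons. Both other tools called Cd36, a fatty acid transporter, in metastasis over carcinoma (adjusted p 0.0373 by DESeq2 and 0.00877 by limma voom). DESeq2 also called Lpin1 over the 5 stages and, by position, Dgat2, Gpam, Elovl2, Cd36, Mylip and Scd3. Limma voom called Cd36 over the 5 stages and Elovl4 there and in the primary stages. Of 21 other sterol genes (uptake, export, SREBP processing and remaining enzymes), 14 were higher and 7 lower in the primary stages than in normal gland, with 0 at an unadjusted p under 0.05. Of those reported here, Soat1, which esterifies cholesterol, had the smallest p (-1.52, SE 1.11, adjusted p 0.573). Of 24 other fatty acid genes tested, 15 were higher and 9 lower, and the elongases Elovl2 (-4.31, SE 1.81, adjusted p 0.212), at 0, 0 and 43.1 CPM in normal 18, 28 and 30, and Elovl7 (-1.53, SE 0.81, adjusted p 0.384) had the smallest p. Of 13 triglyceride and milk fat genes, 8 were higher and 5 lower, with Gpat4, a glycerol phosphate acyltransferase (1.03, SE 0.62, adjusted p 0.46), and Dgat1, which completes triglycerides (1.37, SE 0.84, adjusted p 0.465), in front.

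In the test over all 5 stages, Lpin1, a phosphatidate phosphatase of triglyceride synthesis (adjusted p 0.0787), averaged 23.3 ± 9.82 CPM in normal gland, 148 ± 172 CPM in the hyperplasias, 25.55 ± 23.4 CPM in the adenomas, 17.7 ± 23.1 CPM in the carcinomas and 15 ± 27.4 CPM in the metastases. Cd36 (adjusted p 0.155) was at 4.59 to 78 CPM in metastasis, against 0 to 5.8 CPM in carcinoma (log2 fold change 4.4, SE 1.41, adjusted p 0.224), and the part of the lung cells whose markers were higher in metastasis was not tested. Elovl2 (adjusted p 0.391) and the desaturase Scd4 (0.462) had the smallest p of the fatty acid list.

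In the other 10 comparisons the genes of smallest p in each list, among those reported here, are given by log2 fold change, none with an adjusted p under 0.05 by edgeR (the calls of the other tools are given above). In hyperplasia over normal gland these were Erlin2 (-1.38) and Mbtps1 (1.15) among sterol genes, Elovl7 (-1.97) and Acsl3 (2.44) among fatty acid genes, and Gpat4 (1.34) and Lpin1 (2.67) among triglyceride genes. In adenoma over hyperplasia they were Mbtps2 (-2.13), Mlxipl (-2.72), Scd4 (4.03), Lpin1 (-2.54) and Gpam (4.33) in the same order of lists. Carcinoma over adenoma gave Nr1h2 (1.11), Slc25a1 (0.89), Idh1 (-0.96), Gpat4 (-0.78) and Dgat2 (-2.15). For metastasis over carcinoma they were Abca1 (1.98), Npc2 (0.84), Scd4 (3.77), Hacd2 (1.41), Cd36 (4.4) and Plin2 (1.13), and for carcinoma over normal gland Abca1 (-1.67), Elovl2 (-5.62), Scd4 (-3.67), Cd36 (-3.1) and Dgat1 (1.6). By position, the core over the border of carcinoma gave Scap (-1.01), Mlxipl (4.78), Acsl4 (-1.08), Gpat4 (-1.1) and Lpl (-1.6). The core over the border of adenoma gave Abca1 (-2.7), Acsl4 (-1.52), Olah (with a group at 0), Gpam (with a group at 0) and Dgat2 (5.83). Lung border over lung centre gave Abca1 (-2.75), Nr1h3 (with a group at 0), Hacd3 (-2.21), Elovl3 (with a group at 0), Gpam (7.37) and Dgat2 (5.76). Early lesions outside over core gave Mylip (-2.87), Nr1h3 (-5.92), Olah (with a group at 0), Elovl4 (with a group at 0), Gpam (5.73) and Cd36 (-7.14), and the interaction Abcg1 (3.87), Elovl2 (with a group at 0), Elovl4 (7.2), Gpam (with a group at 0) and Dgat2 (-5.15). Where a group had no count, no fold is given.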

How the data were processed

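The deposited file is a table of read counts for 24454 gene IDs in 32 libraries, of which 24374 IDs matched a mouse gene symbol and 80 did not. Reads were aligned with STAR to mm10, per the submitters' processing notes; the annotation, strandedness and handling of reads that fit several genes were not given in the sources used here. Captured regions were grouped by labelled stage and, within stages, by labelled position; no column was left out. Counts were fitted with edgeR 4.0.16 (R 4.3.3, TMM scaling, default filter on low counts, quasi-likelihood test, Benjamini-Hochberg adjustment over all genes tested), in a model of 5 stages (19907 genes) and a model of stage and position (22676 genes). A call is an adjusted p under 0.05. The SE of an edgeR log2 fold change was derived as its absolute value divided by the square root of the F statistic of its test. It is a rough guide for genes with a group near 0 counts. Levels are CPM on effective library sizes, on the log2(CPM + 1) scale for arm levels. Depth, from 2688611 to 19585351 counts, limits the members at few counts most, and single amplified libraries add error that counts do not show. Alternatives were DESeq2 size factors, DESeq2 1.42.0, limma voom (limma 3.58.1), no filter, a covariate, library totals, other pseudocounts, fits of fewer libraries and leaving out each library. The scripts were tested on simulated data. All 35 members are named; of other pathway genes the 2 of smallest p in each of 3 lists are given per comparison, except genes that are not reported here. Members, lists and alternatives were chosen with earlier results of these data known. Promoter windows come from RefSeq tables of GRCm38.p6.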

Additional observations from a re-analysis of the deposited data

Results flagged for a closer look

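Within a stage, a library was marked when its gap to the nearest other library, divided by the range of the stage, passed Dixon's critical value. Of 148 sets tested over members and arm levels, 13 were marked, and chance alone marks about 1 set in 20. In hyperplasia, library 22 had 0.114 CPM of Sqle (29.5 to 79.2 CPM in the others), 1.14 CPM of Sc5d (21.6 to 44 CPM) and a sterol arm level of 2.36 (3.89 to 4.29). In adenoma, library 51 had 0.285 CPM of Cyp51 (12.3 to 64.2 CPM in the others), 6.57 CPM of Elovl6 (60.1 to 143 CPM) and, as a high value, 479.8 CPM of Elovl1 (48.3 to 115 CPM). Both libraries are among the 3 of fewest detected genes, and the part of this in the values was not tested. Idi1 was high in single libraries of 3 stages, with 105 CPM in adenoma 47 (at most 7.57 CPM in the others), 7.805 CPM in carcinoma 38 (at most 1.74 CPM) and 14.6 CPM in metastasis 58 (at most 0.212 CPM). Carcinoma 38 had 0.661 CPM of Mvd (7.20 to 38.4 CPM in the others), and carcinoma 37 had 335 CPM of Acly (112.5 to 154 CPM). Metastasis 40 had 1.20 CPM of Nsdhl (15.2 to 64.3 CPM in the others) and 7.42 CPM of Fads1 (52.9 to 197 CPM).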

How the results depend on the processing

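Scd2, the only member edgeR called, kept its direction in every setting, but its call was lost in 7 of them, given above. Of the recomputed values of main results, 2805 stayed within the limits set for them and 111 moved. These are counts of calls and arm medians, levels, spreads and co-variation, not single members. A count of 0 in both settings passed as unchanged, and the limit for an arm median or level was its pooled within-stage SD, so the tally is no measure of how firm a call is. The cause of each move was not tested unless the setting itself removes genes or libraries. With DESeq2 size factors, 2 genes were called in carcinoma over normal gland and 1082 in the primary stages, the fatty acid medians of these comparisons were -0.077 and 0.087, and the fatty acid level stood above normal gland by 0.18 in hyperplasia, 0.18 in adenoma and 0.23 in carcinoma. DESeq2 called 483 genes in hyperplasia over normal gland, 609 in adenoma over hyperplasia, 269 in carcinoma over adenoma, 186 in metastasis over carcinoma, 177 in carcinoma over normal gland, 268 in the primary stages, 338 over 5 stages, 314 for carcinoma core over border, 1133 for adenoma core over border, 740 for lung border over centre, 1812 for early lesions outside over core and 690 for the interaction. It called 1 sterol member each in hyperplasia over normal gland, the primary stages, adenoma core over border, outside over core and the interaction, and 1 fatty acid member each in hyperplasia over normal gland, carcinoma over normal gland, adenoma core over border and lung border over centre, with fatty acid medians of -0.078 in carcinoma over normal gland and 0.087 in the primary stages. Limma voom called, in the same order of comparisons, 105, 2, 7, 19 and 316 genes, 354 over 5 stages, then 5, 35, 12, 42 and 1 by position, and 0 fatty acid members in the primary stages, with fatty acid medians of 0.27 in hyperplasia over normal gland and 0.23 in carcinoma over adenoma. Without a filter, calls numbered 5 in metastasis over carcinoma, 2 in carcinoma over normal gland, 1752 in the primary stages, 3717 over 5 stages, 2 for adenoma core over border, 1 for lung border, 2 for outside over core and 4 for the interaction. With detected genes as a covariate they were 125 in carcinoma over adenoma, 0 in carcinoma over normal gland and 14 in the primary stages with 0 fatty acid members, and the fatty acid medians were 0.17 in the primary stages and -0.48 for adenoma core over border and the sterol median of the interaction 0.37. Without the 3 libraries of fewest detected genes, calls were 2 in carcinoma over normal gland, 383 in the primary stages and 126 over 5 stages, and the fatty acid median of lung border over centre was 0.62. With only the compared groups fitted, calls were 23, 3, 5 and 45 (hyperplasia over normal gland, adenoma over hyperplasia, metastasis over carcinoma, carcinoma over normal gland) and 13, 164, 181, 18 and 2 by position. The primary stages as 1 group, added after seeing the data, called 79 genes and 0 fatty acid members. With library totals the fatty acid level of metastasis minus normal gland was -0.079 and its SD in metastasis 0.86, and the SD in normal gland was 0.63 over members of at least 20 CPM and 0.56 for log2 of summed CPM. Leaving out each library gave 0 to 2 calls in carcinoma over normal gland, 96 to 952 in the primary stages, 284 to 907 over 5 stages, 0 to 1 in carcinoma over adenoma, 0 to 2 for adenoma core over border, 0 to 1 for carcinoma core over border and 0 to 2 for the interaction, with 0 to 1 fatty acid members in the primary stages. The sterol medians ranged over 0.43 to 1.28 (hyperplasia over normal gland), -0.82 to 0.91 (adenoma core over border), -0.137 to 0.198 (carcinoma core over border), -0.079 to 0.744 (early lesions outside over core) and -1.276 to 0.349 (interaction), and the fatty acid medians over -0.024 to 0.208 (adenoma over hyperplasia), -0.164 to 0.146 (metastasis over carcinoma), -0.35 to 0.11 (carcinoma core over border) and -0.041 to 0.618 (lung border). The comparison of early lesions outside over core holds only 1 hyperplasia library outside the tumour and cannot be fitted without it. Its range therefore does not cover leaving out that library, and the dependence on it was not tested. No paired analysis was possible because the series does not tie a region to an animal. Members with few counts, such as Idi1, Stard4 and Mvk, had the widest errors.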
